A study of Homo sapiens with 4 samples.

Results

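A set of 7877 regions of open chromatin that were high in every library and lay over 1 kb and at most 100 kb from a gene start was described in SKBR3, a breast cancer line of the HER2 class that carries an amplified ERBB2 gene. Open chromatin had been mapped with ATAC-seq, an assay in which the transposase Tn5 cuts and tags DNA that is accessible to it. The 4 libraries comprised 2 of untreated cells and 2 of cells given TWEAK, a cytokine of the TNF family that binds the receptor Fn14, at 10 ng/ml for 48 h with a renewed dose after 24 h. The protocol given for both groups included 8 h of starvation in reduced-serum medium. The study's methods call the replicates of its cell line ATAC-seq biological, while the labels number them and give no culture, day or batch.

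The regions were chosen by their own height in all 4 libraries. Peaks of the 4 deposited lists that overlapped by at least 1 bp, on chromosomes 1 to 22 and X, merged into 307691 sites, of which 131751 held a peak in every library. Of these shared sites, 86101 lay over 1 kb and at most 100 kb from the nearest GENCODE v44 start site of a protein-coding gene, and 7877 of them reached percentile 90 of the peak list in each library. These 7877 are called the strongest distal sites here, and they were 2.56% of all merged sites and 9.15% of the shared sites in that range of distance. Their height follows from this choice and is given as a description. The other 78224 shared sites at the same distances, called the other shared distal sites, are the main comparison. A further 7387 shared sites passed the height rule within 1 kb of a start site and are called strong promoter sites, and 1162 passed it beyond 100 kb.

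At the percentile threshold, the 2 sites just inside lay 4.69 kb from HTR6 and 8.24 kb from MAST2, each with a lowest percentile of 90.03. The 2 sites just outside lay near FHAD1 and TCF23, each with a lowest percentile of 89.95. At the near limit, the sites 1002 bp from JAM2 and 1003 bp from CPA4 were inside, and those 999 bp from SH2D3A and 997 bp from EPPK1 were outside. At the far limit, the sites 99792 bp from SPRY4 and 99530 bp from MAML2 were inside, and those 100034 bp from TNS1 and 100039 bp from ZHX2 were outside. Among shared sites in the range of distance, 1450 reached percentile 90 in exactly 3 libraries, and the failing library was TWEAK replicate 2 for 703 of them, untreated replicate 1 for 502, TWEAK replicate 1 for 154 and untreated replicate 2 for 91.

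Distal sites of open chromatin commonly mark enhancers, stretches of DNA at which transcription factors gather and from which they act on genes at a distance. AP-1 factors such as FOS and JUN and the NF-kB factors are the usual endpoints of TNF-family signalling, while TFAP2, GRHL and FOXA factors keep epithelial and luminal enhancers accessible, and TEAD factors serve the Hippo pathway. CTCF holds chromatin loops in place. The nearest gene is a position only, and a site need not act on it.

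The cell type was checked at promoters, as the percentile of the highest peak within 1 kb of a marker's start sites. Of 14 epithelial and luminal markers, 11 reached percentile 90 in every library, among them KRT8, KRT19, EPCAM, ERBB2, TFAP2C and GRHL2. CDH1, which encodes E-cadherin, had no peak there in any library, and ESRP1 and SPDEF reached lowest percentiles of 74.9 and 87.5. None of 8 basal or mesenchymal markers and none of 8 markers of other organs reached percentile 90 in all libraries. Of 8 leukocyte markers 3 did so, CD68 and CSF1R among them, while CD3E and MS4A1 had no peak in any library and PTPRC had one in 1 library.

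Sequences made of the central base of the highest-ranking peak and 100 bases on either side are shown for the sites on which the results turn, read from the hg38 reference on its plus strand with the named motif in capitals. Consensus motifs were searched on both strands of this window. The letters were TGAGTCA or TGACTCA for AP-1, GCCNNNGGC for TFAP2, AACCGGTT, AACCTGTT, AACTGGTT or AACTTGTT for GRHL, TGTTTAC for FOXA, AGATAA or TGATAA for GATA, CAGGAAGT or CCGGAAGT for ETS, TTGCNNAA for CEBP, CCCGCCC for KLF/SP, TGTGGTT for RUNX and CACGTG for the E-box. TEAD was searched as ACATTCCA, ACATTCCT, GCATTCCA or GCATTCCT, and NF-kB and CTCF by their degenerate consensus. A match is a run of letters and was not tested as a binding site. The first 5 windows are the site of chromosome 17 with the highest lowest percentile (KLF/SP in capitals), the sites with the largest gap between the groups upwards (CEBP) and downwards (FOXA and TEAD), a second site that was high with TWEAK (NF-kB), and a site near a gene of the NF-kB pathway (AP-1). The last pair of these was added after the values were seen.
PNMT site, chr17:39675034-39675234: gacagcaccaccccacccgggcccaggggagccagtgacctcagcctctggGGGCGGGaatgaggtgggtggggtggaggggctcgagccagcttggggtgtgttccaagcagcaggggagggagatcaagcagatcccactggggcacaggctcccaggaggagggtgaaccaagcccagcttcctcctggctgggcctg
PTPN1 site, chr20:50503114-50503314: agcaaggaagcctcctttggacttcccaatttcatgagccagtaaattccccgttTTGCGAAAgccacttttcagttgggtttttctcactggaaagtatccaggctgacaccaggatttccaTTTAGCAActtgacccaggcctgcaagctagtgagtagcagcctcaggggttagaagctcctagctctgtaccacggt
TTC7B site, chr14:90641671-90641871: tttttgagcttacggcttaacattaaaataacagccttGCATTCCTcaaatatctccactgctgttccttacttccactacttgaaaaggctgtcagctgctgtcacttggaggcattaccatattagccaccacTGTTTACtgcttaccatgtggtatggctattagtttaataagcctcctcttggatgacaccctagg
PPARGC1B site, chr5:149795496-149795696: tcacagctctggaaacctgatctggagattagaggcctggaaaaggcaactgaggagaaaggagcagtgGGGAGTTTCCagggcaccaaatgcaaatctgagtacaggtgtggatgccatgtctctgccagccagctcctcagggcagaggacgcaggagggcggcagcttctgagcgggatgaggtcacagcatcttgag
TNIP1 site, chr5:151075818-151076018: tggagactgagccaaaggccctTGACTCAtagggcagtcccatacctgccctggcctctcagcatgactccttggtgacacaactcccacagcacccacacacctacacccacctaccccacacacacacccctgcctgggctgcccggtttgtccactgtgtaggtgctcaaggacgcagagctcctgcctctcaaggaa

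The next windows are, for some of the motifs, the site with the highest lowest percentile that holds it, with 1 chromosome left out of the choice. The capitals mark AP-1 and TFAP2 near PFDN4, GRHL near PGAP3, FOXA near BCAS1, CTCF near PPP1R1B, TEAD and CEBP near CYP24A1 and ETS near ABHD11. The CTCF match lay 27 bases from the centre of the window and the ETS match 94 bases from it.
PFDN4 site, chr20:54267534-54267734: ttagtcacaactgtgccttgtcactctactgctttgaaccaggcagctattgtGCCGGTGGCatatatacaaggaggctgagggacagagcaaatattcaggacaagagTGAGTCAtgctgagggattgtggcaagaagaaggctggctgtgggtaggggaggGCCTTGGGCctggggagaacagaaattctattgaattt
PGAP3 site, chr17:39677744-39677944: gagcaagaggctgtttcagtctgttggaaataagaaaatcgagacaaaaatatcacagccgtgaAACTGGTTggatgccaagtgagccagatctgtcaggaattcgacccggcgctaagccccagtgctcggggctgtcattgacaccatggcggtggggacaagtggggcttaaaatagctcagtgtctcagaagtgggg
BCAS1 site, chr20:54067701-54067901: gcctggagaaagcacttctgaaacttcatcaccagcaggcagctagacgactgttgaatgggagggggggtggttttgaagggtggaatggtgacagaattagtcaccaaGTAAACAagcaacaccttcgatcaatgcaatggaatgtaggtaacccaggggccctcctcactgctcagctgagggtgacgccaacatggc
PPP1R1B site, chr17:39623480-39623680: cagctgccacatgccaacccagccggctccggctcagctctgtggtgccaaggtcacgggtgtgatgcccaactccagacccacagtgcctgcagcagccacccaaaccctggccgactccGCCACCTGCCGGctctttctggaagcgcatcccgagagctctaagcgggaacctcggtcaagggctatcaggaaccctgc
CYP24A1 site, chr20:54123717-54123917: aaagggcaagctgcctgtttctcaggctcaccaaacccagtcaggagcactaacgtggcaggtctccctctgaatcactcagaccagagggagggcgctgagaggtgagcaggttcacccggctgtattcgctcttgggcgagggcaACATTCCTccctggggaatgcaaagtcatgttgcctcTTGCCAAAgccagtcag
ABHD11 site, chr7:73734920-73735120: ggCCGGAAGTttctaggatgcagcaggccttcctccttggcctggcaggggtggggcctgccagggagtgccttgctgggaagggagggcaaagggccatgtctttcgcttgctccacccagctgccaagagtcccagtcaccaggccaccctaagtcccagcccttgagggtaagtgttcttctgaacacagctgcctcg

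The peak lists held 195388 to 228734 peaks. The deposited value of every peak equalled the −log10 of a Poisson p-value of a whole-number pileup, the number of overlapping reads or fragments at the summit, over a background that was constant within a list. That background, which rises with depth, was 3.59 and 2.24 in the untreated replicates 1 and 2, and 2.63 and 1.85 in the TWEAK replicates 1 and 2. Depth therefore differed between single libraries, and the shallowest was a TWEAK library. Percentile 90 of the lists fell at pileups of 147, 100, 121 and 98 in that order.

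The strongest distal sites had median pileups of 236 and 174 in the untreated libraries and of 197 and 148 in the TWEAK libraries. As a fold over the background of the library these were 65.8 and 77.8 untreated, and 74.8 and 80.1 with TWEAK. The other shared distal sites had median folds of 10.6, 12.5, 12.9 and 14.1 in the same order, so the chosen sites stood far above them by construction. The range within the chosen set was wide in each library: pileups ran from 147 to 3470 in untreated replicate 1 and from 98 to 1876 in TWEAK replicate 2. Strong promoter sites were of similar height, with median folds of 71.4, 83.2, 78.2 and 83.4.

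**Figure D1:**
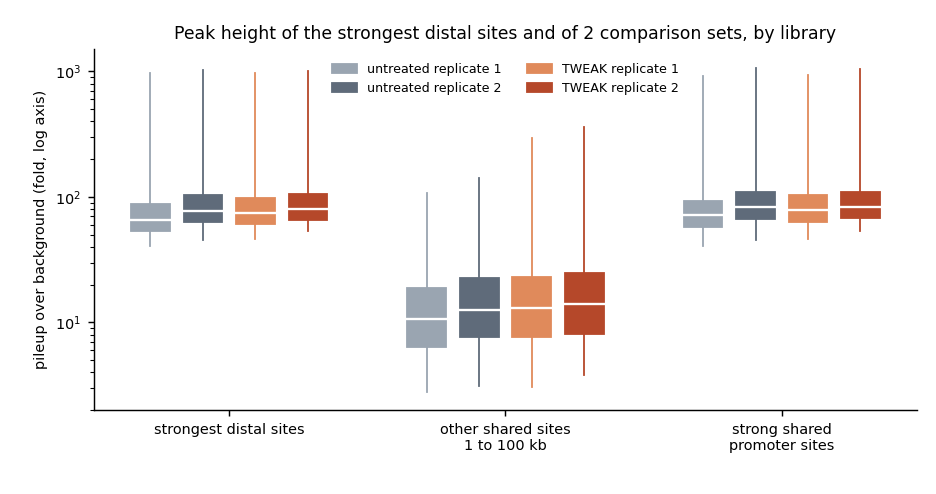
Peak height as pileup over the background of the library (fold, log axis) for the strongest distal sites, the other shared sites at 1 to 100 kb and the strong shared promoter sites, in each of the 4 libraries. Boxes span the quartiles with the median in white and lines run from the lowest to the highest site. The median folds of the strongest distal sites lie between 65.8 and 80.1, against 10.6 to 14.1 for the other shared distal sites.

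For comparisons between libraries the log2 fold over background was centred on the median of all shared sites of its library. On this scale, sites differed by a median of 0.11 between the untreated replicates and of 0.098 between the TWEAK replicates. Between an untreated and a TWEAK library the median difference was 0.18 to 0.20. Within a group, 99.7% of the sites in the untreated pair and 99.8% in the TWEAK pair lay within 0.5 of each other, and between groups 90.7% to 92.7% did. The replicates held distinct values, with identical pileups at 1 site in the untreated pair and at 8 sites in the TWEAK pair.

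The peak centres of the strongest distal sites coincided closely. The centres of the 4 libraries lay within a median of 19 bp of each other, against 36 bp for the other shared distal sites and 22 bp for strong promoter sites. All 4 centres fell within 50 bp at 88.3% of the strongest distal sites and at 61.0% of the other shared distal sites. Centres spread by over 250 bp at 165 of the strongest distal sites, where the merged region held more than one summit position. A merged site was a median of 520 bp long.

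Distance to a start site separated the strongest from the other shared distal sites little. The median was 13.3 kb against 14.4 kb, counting the start sites of all transcripts. With only the 5-prime end of each gene counted, the median of the sites then chosen was 21107 bp. Of the 7877 sites, 1938 lay within 1 to 5 kb, 2885 within 5 to 20 kb, 1987 within 20 to 50 kb and 1067 within 50 to 100 kb. By their midpoint, 3948 (50.1%) were intronic in a protein-coding gene, 3578 (45.4%) were outside such genes and 351 (4.46%) were in an exon, and the shares of the other shared distal sites were 52.1%, 42.9% and 5.04%. They lay upstream of the nearest start site in 48.7% of cases.

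In base composition they stood between the other shared distal sites and promoters. The median GC content of the window around each site was 52.7%, against 48.8% for the other shared distal sites and 65.2% for strong promoter sites. They held a median of 3 CpG dinucleotides, against 2 and 17. Of the strongest distal sites, 641 (8.14%) lay within 1 kb of a start site of a long non-coding RNA, against 4.26% of the other shared distal sites and 21.8% of strong promoter sites. These 641 sites were spread over 604 such genes, and no gene had more than 3, the count at LINC01348. Midpoints of annotated tRNA genes lay within 250 bp of 25 of the strongest distal sites (0.317%) and of 111 of the other shared distal sites (0.142%). In all, 10.4% of the chosen sites were within 1 kb of the start of a gene of another type.

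Of the 15 motifs other than the longer form of AP-1, at least 1 was present in 5810 sites (73.8%) and at least 2 in 2568 (32.6%). Shares are given with the Wilson 95% interval, which covers counting error only, and beside the share in all 307691 merged sites. AP-1 was found in 1279 of the strongest distal sites (16.2%, 15.4% to 17.1%), against 11.2% of the other shared distal sites, 4.28% of strong promoter sites and 9.02% of all merged sites. TFAP2, bound by the luminal factors TFAP2A and TFAP2C, was found in 1525 (19.4%, 18.5% to 20.2%), against 13.3%, 23.9% and 12.2%. GRHL, bound by the epithelial grainyhead-like factors, was found in 491 (6.23%, 5.72% to 6.79%), against 4.15%, 1.89% and 3.28%. TEAD was found in 923 (11.7%, 11.03% to 12.45%), against 8.99%, 3.05% and 7.23%, and FOXA in 685 (8.70%, 8.09% to 9.34%), against 7.08%, 2.30% and 5.59%. These 5 motifs were more frequent in the strongest than in the other shared distal sites. This was not particular to the range of distance. The 1162 strong shared sites beyond 100 kb held AP-1 in 17.6%, TFAP2 in 17.7% and GRHL in 6.885%. They held TEAD in 14.2% and FOXA in 12.9%.

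KLF/SP, a GC-rich motif of promoters, was found in 732 (9.29%, 8.67% to 9.95%), against 4.09% of the other shared distal sites and 45.0% of strong promoter sites. GATA was found in 572 sites (7.26%, 6.71% to 7.86%), fewer than the 12.3% of the other shared distal sites and the 12.9% of all merged sites. CTCF was found in 477 (6.06%, 5.55% to 6.60%), against 7.27% of the other shared distal sites and 3.78% of all merged sites. NF-kB was found in 496 (6.30%, 5.78% to 6.86%), against 5.60% of the other shared distal sites, 7.65% of strong promoter sites and 6.21% of all merged sites. ETS was found in 262 (3.33%, 2.95% to 3.75%), against 2.79% of the other shared distal sites. CEBP was found in 12.7% of the strongest and 12.5% of the other shared distal sites. GC content moves with several of these shares, and its part in them was not tested. The shares depend on the window: within 50 bp and 250 bp of the centre they were 10.2% and 22.3% for AP-1, 3.35% and 14.5% for NF-kB and 3.31% and 25.5% for GATA.

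**Figure D2:**
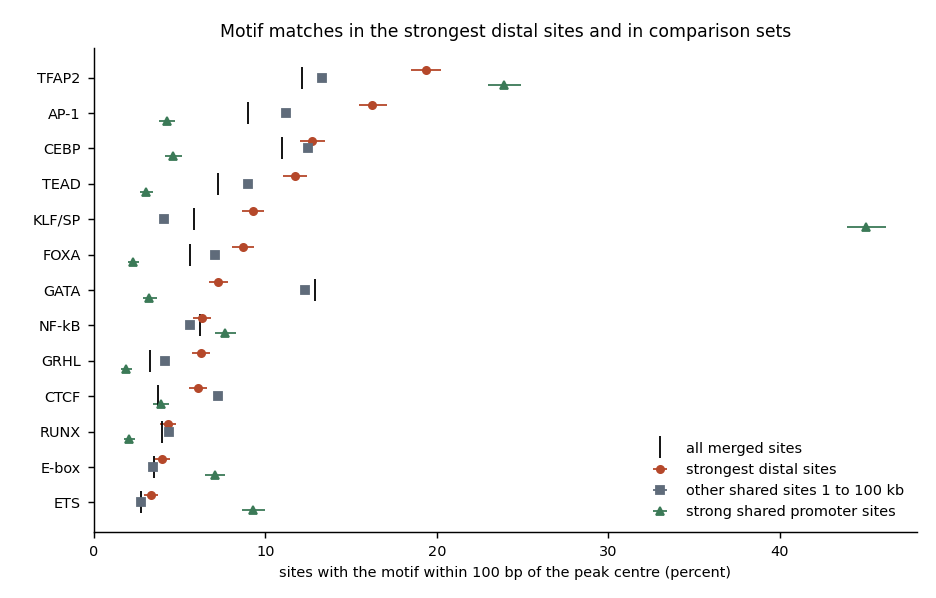
Percent of sites with each motif at most 100 bp from the middle of the highest-ranking peak, for the strongest distal sites (circles), the other shared sites at 1 to 100 kb (squares), the strong shared promoter sites (triangles) and all merged sites (vertical ticks). Bars are Wilson 95% intervals. AP-1 reached 16.2% in the strongest distal sites against 4.28% in strong promoter sites, and KLF/SP 9.29% against 45.0%.

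The strongest distal sites were unevenly placed along the genome. Chromosome 1 held 907 of them, chromosome 7 held 781 and chromosome 17 held 544. Per length the highest were chromosome 20 with 7.03 sites per Mb and chromosome 17 with 6.53, and the lowest were X with 0.487 and chromosome 18 with 0.597. In bins of 1 Mb, 53.7% of 3044 bins held at least 1 site and 214 bins held 10 or more, with 3439 sites (43.7%) between them. The fullest bin, with 51 sites, was chr17:39000001-40000000, which contains ERBB2. Bins with 49, 49 and 48 sites followed on chromosome 20 near PTPN1, on chromosome 8 near FBXO32 and on chromosome 8 near TPD52.

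Some of these bins also held unusually many shared sites of any height. The densest 1% of bins by shared sites were 29 bins with at least 238 shared sites each, 19 on chromosome 8, 5 on chromosome 17, 3 on chromosome 20 and 2 on chromosome 7. They held 648 (8.23%) of the strongest distal sites, against 6.90% of the other shared distal sites. The sites in them were taller, with median pileups of 326.5, 241, 285.5 and 220 in the 4 libraries, against 232, 172, 194 and 145 elsewhere, although the median of all shared sites of the same bin was lower there (−0.48 on the centred log2 scale, against 0.15). SKBR3 is known to carry amplified DNA, and copy number raises pileups and the number of peaks that can be called. Copy number was not measured here and its part in these heights was not tested.

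**Figure D3:**
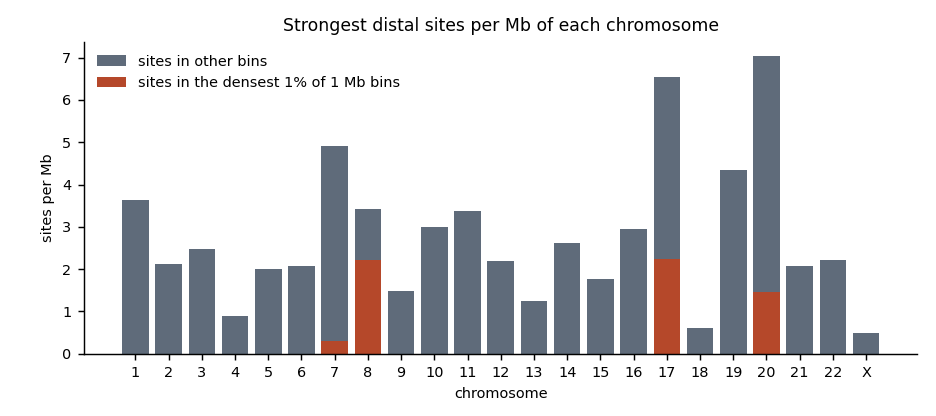
Strongest distal sites per Mb of each chromosome, with the sites in the densest 1% of 1 Mb bins in red. Chromosome 20 has 7.03 sites per Mb and chromosome 17 has 6.53. The densest bins lie on chromosomes 7, 8, 17 and 20 and account for 320 of the 496 sites on chromosome 8.

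All 10 sites with the highest lowest percentile lay in these densest bins, 7 on chromosome 8 and 3 on chromosome 17. The tallest was in an intron of DEPTOR, which encodes an inhibitor of mTOR, 12.9 kb from a start site, with pileups of 3470 and 2310 untreated and 2538 and 1876 with TWEAK. A site 66.2 kb upstream of the oncogene MYC had pileups of 2699, 2027, 2282 and 1710 in the same order. A site 28.6 kb upstream of TRPS1, a GATA-type repressor of luminal cells, had 2587, 1996, 2052 and 1613. Others were near ZNF704, TPD52, KLHL38 and ZHX2. The 3 on chromosome 17 were 6415 bp and 7546 bp from PNMT and 4328 bp from an ERBB2 start site, the last with pileups of 2519 and 1777 untreated and 1855 and 1330 with TWEAK. Untreated replicate 1, the library with the highest background, had the highest raw pileup at each of the 10 sites.

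Outside the densest bins, the 10 highest sites, looked at after the values were seen, lay on chromosomes 7, 8, 10, 14 and 20. The first was 33.2 kb from CYP24A1, the vitamin D-degrading enzyme on chromosome 20, with pileups of 1737, 1247, 1460 and 1049, and its window above held TEAD and CEBP matches. Another lay 59.0 kb from PFDN4, with 1145, 850, 984 and 753. A pair near the carboxypeptidase genes CPA5 and CPA1 on chromosome 7 had 1064, 852, 862 and 671 and 1064, 846, 908 and 655.

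Neighbouring sites often formed runs. With gaps of at most 12.5 kb, 3255 sites fell into 1253 runs of at least 2 sites and 4622 (58.7%) stood alone. Runs of 5 or more numbered 80 and held 506 sites. The longest had 14 sites over 70.6 kb of ZMIZ1, a transcriptional coactivator of the PIAS-like family on chromosome 10, and the next 11 sites over 41.7 kb of the polarity gene DLG5, on the same chromosome. Runs of 10 sites each were seen near RHOV on chromosome 15 and near HSPB1, a small heat shock protein, on chromosome 7. None of these runs lay in the densest bins. By contrast, runs of 9 sites near TPD52 and near FAM83A lay in them.

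The 7877 sites had 4118 protein-coding genes as nearest gene, 20.6% of 19970. Most of these genes, 2516, had 1 site, 280 had at least 5 and 32 had at least 10. KCNMA1, a calcium-activated potassium channel, had the most with 25, of 123 shared sites at these distances. TPD52, a gene often gained in breast cancer, followed with 24, then ZMIZ1 with 23, DLG5 with 18, and GSE1, ZHX2 and ZNF704 with 17 each. TNS3, a focal adhesion protein, had 16, COL14A1, a collagen, had 15, and MYC and PPARGC1B had 14 each. The sites of TPD52, ZHX2, ZNF704, COL14A1 and MYC were all in the densest bins, and those of KCNMA1, ZMIZ1, DLG5, GSE1 and TNS3 were not. All 14 MYC sites were outside protein-coding genes, 6.09 kb to 94.0 kb from its start, and 24 of the 25 KCNMA1 sites were intronic.

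Gene lists were read against the 20.6% of all protein-coding genes that were nearest to such a site. Of 22 luminal and epithelial transcription factors, 17 (77.3%) had at least 1, led by TRPS1 with 10, ZNF217 with 9 and the epithelial ETS factor ELF3 with 7. TFAP2A, GRHL2 and EHF had 4 each, and FOXA1, SPDEF, SOX9 and TBX3 had 1 each. Of 22 keratin and epithelial junction genes, 12 (54.5%) had a site, led by KRT19 and the tight junction gene CLDN4 with 6 each and KRT80 with 5. Of 13 genes around ERBB2, 10 (76.9%) had one, led by ERBB2 itself with 6 and CDK12 with 5.

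Of 11 genes of AP-1 factors, 7 (63.6%) had a site, led by FOS with 5 and ATF3 with 3. Of 26 genes of the NF-kB pathway, 9 (34.6%) had one, with 3 at NFKBIA, the inhibitor that NF-kB itself induces, 2 each at BCL3 and TNIP1 and 1 each at NFKB1, TNFAIP3, TNFAIP2, BIRC2, TRAF1 and MAP3K14. Of 16 basal and mesenchymal genes, 6 (37.5%) had one, led by EGFR with 6 and TP63 with 5. Of 10 leukocyte genes only PTPRC had any, with 3 sites in its introns 16.2 kb to 18.4 kb from a start site, and of 10 genes of other organs none had any. The lists were not matched to other genes for length or spacing, so the shares are a description.

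The comparison of TWEAK with untreated cells asks whether the strongest distal sites moved with treatment. A site called higher here had both TWEAK libraries above both untreated libraries on the centred log2 scale, and lower the reverse. Among the strongest distal sites 968 (12.3%) were higher and 4084 (51.8%) lower, and the groups overlapped at 2825. Over all 131751 shared sites the same calls took 18.5% and 36.4%, and over the other shared distal sites 21% and 32.8%. Since a site had to be high in every library to be chosen, large changes were limited by the choice itself.

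The direction of this split depended on the scale. The centred median of the strongest distal sites was 2.39 and 2.40 in the untreated libraries and 2.26 and 2.25 with TWEAK, a mean of 2.40 ± 0.0055 against 2.26 ± 0.0065 (SD, n = 2 each). The difference was −0.13, and the exact permutation p, with both sides counted, was 0.3333, the smallest that 2 against 2 libraries can give. Before centring, the log2 fold over background was 6.04 and 6.28 untreated and 6.23 and 6.32 with TWEAK, and the difference was 0.11 in the other direction (exact permutation p = 0.667), because the median of all shared sites was 0.25 higher with TWEAK. Without centring, 2625 sites (33.3%) were higher and 678 (8.61%) lower, against 34.8% and 12.2% of all shared sites. By percentile within the list, 1668 (21.2%) were higher and 2538 (32.2%) lower, against 15.8% and 35.4% of all shared sites. Strong promoter sites fell further on the centred scale, by 0.18, with 3.05% higher and 62.9% lower. When the centre was the median of those promoter sites, an alternative added after the data were seen, the difference of the strongest distal sites was 0.046. The set as a whole therefore had no direction that held on every scale.

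A shift common to all sites does not alter how they rank among themselves. The mean TWEAK minus untreated difference of a site ranged from −1.14 to 1.504 on the log2 scale, with a median of −0.14 and quartiles of −0.27 and −0.0022. By more than 0.5, 116 sites (1.47%) moved upwards and 360 (4.57%) downwards on the centred scale, against 8.78% and 12.7% of all shared sites. Without centring, a scale added for these counts after the data were seen, 446 sites (5.66%) moved upwards and 52 (0.66%) downwards, so the side with more sites turned, against 17.8% and 4.41% of all shared sites. By more than 1, 15 (0.19%) moved upwards and 4 (0.051%) downwards on the centred scale, against 2.55% and 1.32% of all shared sites. The rest of this account is about which of the strongest distal sites lay at which end.

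Within the set, sites with NF-kB or AP-1 matches lay towards the TWEAK-high end. Of the 496 sites with an NF-kB match, 140 (28.2%) were higher and 175 (35.3%) lower. Of the 1279 with AP-1, 272 (21.3%) were higher and 480 (37.5%) lower. Of the 6170 with neither, 581 (9.42%) were higher and 3446 (55.9%) lower, against 12.3% and 51.8% of the whole set. Over all shared sites the shares were 18.5% and 36.4%, and those of the AP-1 sites were near them. The 68 sites with both motifs had 25 (36.8%) higher and 17 (25%) lower. Per library, their centred median was 2.29 and 2.28 untreated and 2.42 with TWEAK in both replicates, whereas for sites with neither motif it was 2.40 and 2.41 untreated and 2.24 and 2.23 with TWEAK. The 4 libraries of the sites with both motifs did not overlap between groups, nor did those of the sites with neither. The directions were opposite on the centred scale, and without centring the shift of 0.25 turned that of the sites with neither motif.

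Sites with FOXA lay towards the other end. They had 60 (8.76%) higher and 404 (59.0%) lower, and their centred median went from 2.40 and 2.44 untreated to 2.25 and 2.24 with TWEAK. The lower share was 39.9% by percentile, 27.7% when centred on strong promoter sites and 12.9% without centring, where the shift of 0.25 turned the direction of the median. In the whole set the lower share was 32.2%, 20.97% and 8.61% on the same scales, and among all shared sites it was 35.4% by percentile and 12.2% without centring. Without AP-1 or NF-kB matches, 353 of 563 FOXA sites (62.7%) were lower. TFAP2 sites had 10.5% higher and 53.3% lower, TEAD sites 12.8% and 53.8%, and KLF/SP sites 7.92% and 57.1%. CTCF sites had 36 (7.55%) higher and 193 (40.5%) lower.

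The same order appeared in the other shared distal sites, which the height rule had left out. There 42.4% of 4382 NF-kB sites and 39.4% of 8796 AP-1 sites were higher, against 17.4% of 65445 sites with neither, and 257 of 399 sites with both (64.4%) were higher and 31 lower. FOXA sites were lower in 43.1%. Sites of both sets were measured in the same libraries, so this is not an independent replicate. By percentile, 38.3% of NF-kB sites and 32.6% of AP-1 sites of the strongest set were higher, against 17.7% of those with neither.

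**Figure D4:**
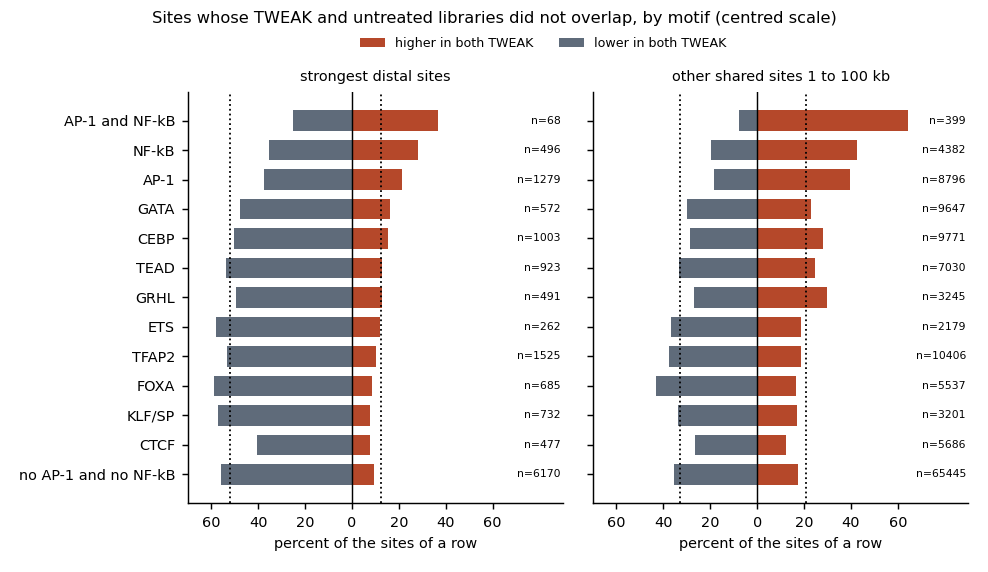
Percent of sites higher (right, red) or lower (left, grey) in both TWEAK libraries on the centred log2 scale, by motif, for the strongest distal sites and for the other shared sites at 1 to 100 kb. Dotted lines mark the shares of the whole set, 12.3% and 51.8% on the left and 21% and 32.8% on the right, and n is the number of sites. Sites with NF-kB and AP-1 matches were higher in 28.2% and 21.3% of the strongest distal sites and in 42.4% and 39.4% of the others.

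The few sites that moved most differed in the same way. Among the 116 that were higher by more than 0.5 on the centred scale, 37 (31.9%) held NF-kB and 30 (25.9%) AP-1, and none held CTCF. Among the 360 lower by more than 0.5, 13 (3.61%) held NF-kB, 13 (3.61%) AP-1, 48 (13.3%) FOXA and 80 (22.2%) TFAP2. Among the 7401 that moved less, the shares were 6.03% for NF-kB, 16.7% for AP-1, 8.50% for FOXA and 19.4% for TFAP2. CTCF was rare at both ends, with 2 (0.556%) of the 360 holding it, against 6.42% of the 7401. The median pileups of the 116 were 184.5 and 138 untreated and 280.5 and 219 with TWEAK, and those of the 360 were 300 and 214 untreated and 177 and 129 with TWEAK. Of the 116, 30 (25.9%) lay in the densest bins, and of the 360, 47 (13.1%) did, against 8.23% of the whole set. Without the densest bins 27.9% of NF-kB sites were higher, against 8.52% of sites with neither motif.

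The 5 sites with the largest gap upwards were 2.31 to 2.84 times as high over background with TWEAK, on the centred scale. Like every site of the set, they were at percentile 90 or above in untreated cells by the rule. The first, 6.86 kb upstream of PTPN1, a tyrosine phosphatase on chromosome 20, had pileups of 157 and 107 untreated and 388 and 298 with TWEAK, and centred values of 1.80, 1.70, 3.24 and 3.27. A site 8495 bp upstream of MYC had 234 and 168 untreated and 570 and 433 with TWEAK. A site 55.2 kb upstream of the ubiquitin ligase gene FBXO32 held an NF-kB match and had 501 and 359 untreated and 1193 and 865 with TWEAK. In these 3 the lowest TWEAK value was above the highest untreated value by 1.44, 1.42 and 1.33.

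The other sites were the intronic site of PPARGC1B, a coactivator of mitochondrial genes, and one near MAL2. The PPARGC1B site, 23.4 kb from the nearest start site of the gene on chromosome 5, had pileups of 164 and 115 untreated and 362 and 333 with TWEAK, and its window above holds the NF-kB match 26 bases from the centre. The site 2428 bp upstream of a start site of MAL2, an epithelial transport protein, held an AP-1 match and had 310 and 232 untreated and 643 and 509 with TWEAK. Of the 5 sites, 4 lay in the densest bins, and the PPARGC1B site did not.

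The 5 largest gaps downwards included a pair near TTC7B on chromosome 14. The first, in its intron 2.16 kb from a start site, had pileups of 430 and 327 untreated and 183 and 135 with TWEAK, and its window holds FOXA and TEAD matches. The second, outside protein-coding genes and 72.9 kb from the nearest TTC7B start site, had 412 and 301 untreated and 179 and 128 with TWEAK, and it held an NF-kB match. A site 3470 bp from BMP7, a growth factor of the TGF-beta family, had 307 and 213 untreated and 136 and 108 with TWEAK. The remaining sites were in an intron of KCNMA1, with 351 and 226 untreated and 154 and 106 with TWEAK, and 22.7 kb upstream of SPO11, with 530 and 385 untreated and 263 and 197 with TWEAK. The untreated and TWEAK libraries did not overlap at any of these sites, which is how they were chosen.

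**Figure D5:**
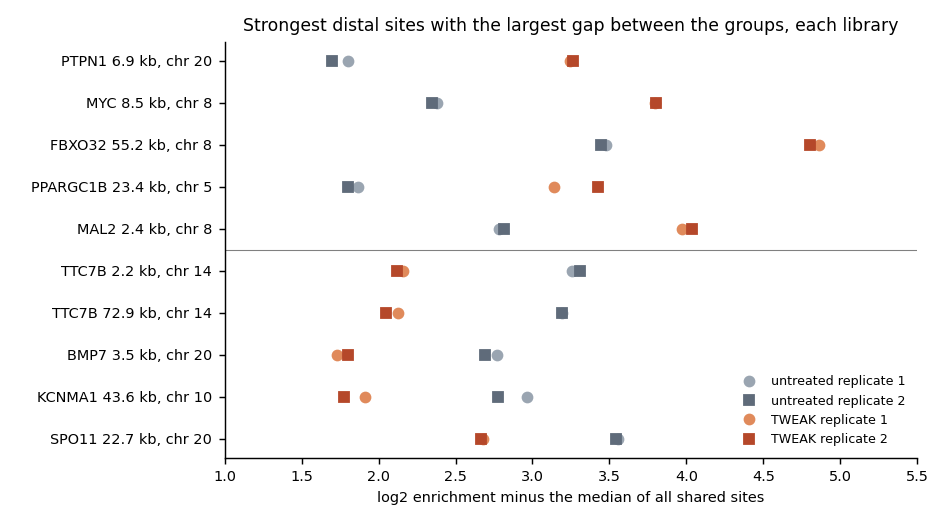
Log2 enrichment over background minus the median of all shared sites, in each library, at the 5 sites with the largest gap upwards (above the line) and the 5 with the largest gap downwards (below it), each named by its nearest gene, distance and chromosome. At PTPN1 the untreated libraries lie at 1.80 and 1.70 and the TWEAK libraries at 3.24 and 3.27. The choice by gap favours sites whose replicates are close. At PPARGC1B the TWEAK replicates lie further apart, at 3.14 and 3.425.

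Per gene, counts on the centred scale can be read against 12.3% higher and 51.8% lower in the whole set and 18.5% and 36.4% of all shared sites, and they share its dependence on the scale. At KCNMA1, 18 of 25 sites were lower and 4 higher, with a median difference of −0.32. At GSE1, 11 of 17 were lower and none higher, and at SDC1, a syndecan of epithelial cells on chromosome 2, 9 of 11 were lower and none higher. ZMIZ1 with 12 lower and 3 higher of 23, and DLG5 with 10 and 3 of 18, were near the shares of the whole set. At TPD52 11 of 24 were higher and 7 lower, and at FBXO32 8 of 13 were higher and 3 lower, with a median difference of 0.23. MYC had 5 higher and 5 lower of 14. All sites of TPD52, FBXO32 and MYC lay in the densest bins. There 23.15% of the strongest distal sites were higher and 48.3% lower, against 11.3% and 52.2% elsewhere. Sites of one gene can share a stretch of open chromatin and are not replicates.

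In the gene lists, the sites of luminal and epithelial transcription factors were lower in 33 of 55 cases and higher in 9, those of AP-1 factor genes lower in 9 of 15 and higher in 1, and those around ERBB2 lower in 20 of 30 and higher in 5. The corresponding counts for keratin and junction genes were 18 and 6 of 34, and for basal and mesenchymal genes 8 and 5 of 18. All 5 FOS sites, both KRT8 sites and all 4 PPP1R1B sites were lower. In the same lists, IKZF3 had 2 higher and 0 lower of 4, and DSP 2 higher and 1 lower of 3. ZNF217 had 4 higher and 4 lower of 9, and none of the 3 ATF3 sites was called either way. The shares of the lists can be read against 51.8% lower and 12.3% higher in the whole set. Over all shared sites they were 36.4% and 18.5%. The shares of the lists have the same dependence on the scale as the whole set.

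The 13 sites at NF-kB pathway genes were lower in 5 cases (38.5%) and higher in 3 (23.1%) on the centred scale, against 51.8% and 12.3% of the whole set and 36.4% and 18.5% of all shared sites. The tallest, in an intron of TNIP1, a partner of the inhibitor A20, lay 4.83 kb from a start site. It had pileups of 433 and 370 untreated and 518 and 418 with TWEAK. It holds the AP-1 match shown above, 75 bases from the centre of the window. Its centred values were 3.27 and 3.49 untreated and 3.66 and 3.75 with TWEAK, so the groups did not overlap. A site 5317 bp upstream of BCL3, an atypical IkB protein, had 379 and 260 untreated and 327 and 210 with TWEAK, with groups that overlapped on the centred scale. A site 15.3 kb from NFKBIA had 265 and 179 untreated and 220 and 163 with TWEAK. Its difference was −0.09, with a gap between the groups of 0.02. The difference of the 1 site of BIRC2, which encodes cIAP1, was −0.52.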

How the data were processed

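ATAC-seq peak lists of 4 SKBR3 libraries, 2 untreated and 2 with TWEAK, were used. Per the labels and the study's methods, the authors trimmed adaptors (Trimmomatic), aligned to hg38 (Bowtie2), discarded mitochondrial reads (Bamtools) and duplicates (Picard), and then ran MACS2. Each list came from 1 library, its peaks were all of one width, and blacklisted regions were gone. Tool versions, the MACS2 settings and any shift of reads for the Tn5 cut were not given in the sources used here. The deposited lists give for each peak a −log10 p-value whose column is unnamed. It equalled an uncorrected Poisson upper tail of a whole number for every peak, to within 0.0022 of a pileup step, which gave back the pileup and the background. Another caller convention would shift each pileup by 1. All sequence names of the lists were in the hg38 reference, and no peak ended beyond it.

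Pileup over background was taken as log2 and centred on the median of the shared sites. Sites, GENCODE v44 distances, motifs within 100 bp of peak centres, bins of 1 Mb and counts were computed with Python 3.11.15, numpy 2.4.6, pandas 2.3.3, scipy 1.17.1, pysam 0.24.0 and matplotlib 3.10.9, and were tested on simulated data. Groups were compared by an exact permutation test over libraries and by counting sites whose groups did not overlap. The study's DiffBind analysis needs reads and was not run here.

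The members and lists were chosen with earlier results of these data known. Named sites were the 10 with the highest lowest percentile, the 5 with the largest gap in each direction, up to 3 per gene list and the 2 nearest each threshold. Named genes were the 10 with the most sites, and other named genes and sites were chosen after their values were seen. The alternatives covered the peak threshold, the overlap for merging, the percentile, the distance, the start sites, the scale, each library, the densest bins and the motif window. No sequence from chromosome 8 was printed. Some named items and windows are not reported here. Intervals cover counting error only.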

Additional observations from a re-analysis of the deposited data

How the results depend on the processing

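The number of strongest distal sites was 7877 and became 3490 at a percentile of at least 0.95. Leaving out each library in turn gave 8001 to 8632. The TWEAK minus untreated difference of −0.13 turned to 0.11 without centring and to 0.046 when centred on strong promoter sites, an alternative chosen after seeing the data. Leaving out each library gave −0.12 to −0.09. Sites higher with TWEAK numbered 968, but 1668 by percentile, 2625 without centring, 2729 centred on strong promoter sites, 2153 centred on the sites themselves (also chosen after seeing the data) and 360 at a percentile of 0.95. Leaving out a library gave 1770 to 2096, where fewer libraries had to be separated. Sites lower with TWEAK numbered 4084, but 2538 by percentile, 678 without centring, 1652 centred on strong promoter sites, 2168 centred on the sites themselves, 2693 with deposited values of at least 5 and 2032 at a percentile of 0.95, and 4413 to 5123 without 1 library. The peak threshold and the percentile threshold also changed the number of sites. With deposited values of at least 5 the set held 5699 sites, of which 47.25% were lower, against 51.85% in the main set. Of the 3490 sites at a percentile of 0.95, 58.22% were lower, so this share rose while the count fell. Their higher share was 10.32%, against 12.29% in the main set. The cause of the changes with scale was not tested.

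With the replicate number as a replicate block the difference was −0.13 (exact permutation p = 0.5), with 1244 sites higher and 4722 lower. The deviations of same-numbered libraries correlated at 0.101 over these sites and 0.024 over all shared sites. With 2 pairs this cannot show whether same-numbered libraries share a day or batch. The order of the share of higher sites, NF-kB above AP-1 above neither motif, held under all 17 alternatives, with ranges of 20.6% to 53.8%, 17.2% to 50.1% and 7.74% to 30.2%. The smallest margin of NF-kB over AP-1 was 1.26 percentage points. It was seen with motifs within 250 bp of the centre (20.6% against 19.3%). All alternatives drew on the same 4 libraries. The share of FOXA sites that were lower ranged from 12.9% to 70.1%. Motif shares within 50 bp and 250 bp of the centre were 11.2% and 30.6% for TFAP2, 4.02% and 9.28% for GRHL, 5.43% and 13.1% for FOXA, 7.27% and 17.7% for TEAD, 4.84% and 7.38% for CTCF, 5.68% and 14.4% for KLF/SP, 1.80% and 6.45% for ETS and 7.198% and 25.8% for CEBP. With gene 5-prime ends only, KLF/SP was 14.5%, and at a percentile of 0.95 CTCF was 3.87%. With 2 libraries a group, no exact permutation test could pass a threshold of 0.05.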
